A study of Mus musculus with 54 samples.

Results

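Aquaporins are membrane channels that let water, and in some members also glycerol, cross the cell membrane along an osmotic or concentration gradient. The 7 aquaporin genes *Aqp1*, *Aqp2*, *Aqp3*, *Aqp4*, *Aqp6*, *Aqp7* and *Aqp11* were taken by name out of the 33126 genes listed in the tables of this mouse kidney study. Each is known from a particular place along the nephron. AQP1 is the constitutive water channel of the proximal tubule and the descending thin limb. AQP2 is the vasopressin-regulated channel of the apical membrane of collecting duct principal cells, and AQP3 and AQP4 let that water leave through the basolateral membrane. AQP6 sits in intracellular vesicles of intercalated cells, AQP7 carries water and glycerol in the straight part of the proximal tubule, and AQP11 lies in the endoplasmic reticulum of proximal tubule cells.

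The study compared ways of preparing whole adult kidney for sequencing, with 18 conditions of 3 libraries each. The triplicates are described as coming from different mice. Male C57BL/6J mice (AFAPIL.1DEL, 1 litter, 19 weeks, no procedures) gave suspensions made on ice with a bacterial protease (cold) or with a commercial enzyme kit at body temperature (warm), and each was run fresh, cryopreserved for 6 weeks and methanol-fixed for 3 months on 10x chemistry version 2, with bulk RNA-seq of the fresh suspensions. Male Balb/c mice (1 litter, 18 weeks, untreated) gave cold fresh cells and nuclei on version 2 and bulk RNA-seq of intact kidney. Female wild-type Balb/c mice (former breeders, 15 weeks, untreated) gave cold fresh cells, cold cells cryopreserved for 2 weeks and nuclei on version 3, with bulk RNA-seq of intact kidney and of cold suspensions. Nuclei and the RNA of intact kidney came from flash-frozen whole kidneys rather than from suspensions. Nuclei were sorted after 3 washes at 500g (3x500g), sorted after 1 wash at 2000g (1x2000g, female only) or purified through sucrose (female only). Per the study, the experiments were run in 3 batches separated in time. Female and male Balb/c mice differ in sex, age, breeding history, batch, chemistry, bulk kit and bulk read length at once. C57BL/6J and male Balb/c mice differ in strain, age, batch and bulk read length, so that within each pair these cannot be told apart.

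Levels in cells and nuclei are given as CPM, the unique molecular identifiers (UMIs) of a gene per 1000000 non-mitochondrial UMIs of a cell class in a library. The classes were rebuilt by clustering without the aquaporins and were named from marker genes, so that each name stands for barcodes with those markers ("principal-cell-like" and so on). Libraries held 782 to 9308 barcodes, with medians of 343 to 3893 UMIs per barcode, and bulk libraries held 2326998 to 31093949 reads. The most barcodes that any pair of libraries of 1 chemistry shared was 101. Genes in fewer than 10 cells had been removed per the study's methods, although all libraries except the 3 female cryopreserved ones still hold 6 to 852 genes counted in fewer barcodes. A member listed at 0 in a whole library is therefore not read as a measured 0 here. In the C57BL/6J libraries this was so, among others, for *Aqp4* in all 3 warm fresh libraries and for *Aqp7* in all 6 cryopreserved ones, and such members received neither a level nor a test there. By this rule *Aqp4* and *Aqp11* were not tested after C57BL/6J cryopreservation, and *Aqp6* not after its warm form. The same held for *Aqp4* and *Aqp6* after cold methanol fixation and for *Aqp7* between male nuclei and cells. In the warm cryopreserved library of replicate 1, a cluster led by *Cldn4* and *Gdf15* held most of the 329 principal cell barcodes, against 39 and 54 principal cells in the other 2 libraries, and the changes of members that use it are also given without it.

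Some members of different cell types lie close together in the genome. On GRCm38 with the GENCODE vM21 annotation, *Aqp2* (chr15:99579055-99584547, plus strand) is followed by *Aqp5* after 6.24 kb and then by *Aqp6* (chr15:99601400-99605477, plus strand) after a further 6.57 kb. *Aqp3* (chr4:41092722-41098183, minus strand) and *Aqp7* (chr4:41033074-41048139, minus strand) are 44.6 kb apart. *Aqp1* (chr6:55336432-55348555, plus strand), *Aqp4* and *Aqp11* (chr7:97724006-97738289, minus strand) have no other member near them. *Aqp4* overlaps an antisense gene, *AC133525.2*, and since counting by strand is not stated its bulk reads cannot be told apart from that gene's reads.

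The 250 bases before the RefSeq start of *Aqp2*, *Aqp3* and *Aqp6* are shown because *Aqp2* and *Aqp3* were highest in the same cell class, while *Aqp6*, the near neighbour of *Aqp2*, was highest in another. They are RefSeq sequences on GRCm38.p6, written 5′ to 3′ on the strand of the gene, at chr15:99578806-99579055, chr4:41098184-41098433 and chr15:99600950-99601199. The RefSeq start of *Aqp6* lies upstream of its GENCODE start given above, and positions are counted from the RefSeq start.
Aqp2: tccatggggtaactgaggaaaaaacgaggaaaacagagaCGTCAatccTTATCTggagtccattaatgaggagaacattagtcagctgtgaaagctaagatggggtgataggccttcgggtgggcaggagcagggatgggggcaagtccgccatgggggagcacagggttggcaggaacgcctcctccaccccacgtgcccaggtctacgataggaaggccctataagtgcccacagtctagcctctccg
Aqp3: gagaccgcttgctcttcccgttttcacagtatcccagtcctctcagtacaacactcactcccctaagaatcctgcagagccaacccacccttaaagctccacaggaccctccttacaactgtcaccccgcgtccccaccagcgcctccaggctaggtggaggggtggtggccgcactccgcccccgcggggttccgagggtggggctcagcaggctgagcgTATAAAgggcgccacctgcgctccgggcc
Aqp6: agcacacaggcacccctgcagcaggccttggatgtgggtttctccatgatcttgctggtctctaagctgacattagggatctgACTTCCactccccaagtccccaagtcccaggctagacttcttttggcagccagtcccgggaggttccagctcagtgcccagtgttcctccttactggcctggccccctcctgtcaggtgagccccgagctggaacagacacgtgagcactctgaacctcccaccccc

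Capitals mark matches to motifs searched on both strands over 250 bases before to 50 after each RefSeq start. They are a cyclic AMP response element half-site TGACG (reverse strand, position -211) and a GATA motif AGATAA (reverse strand, -202) before *Aqp2*, a TATA box TATAAA (-29) before *Aqp3* and an ETS core GGAAGT (reverse strand, -167) before *Aqp6*. These matches are common, since 20.8%, 11.2%, 13.6% and 23.8% of the 32851 promoters of the table hold the respective motif. The full element TGACGTCA (1.79% of promoters) matched no promoter of the members whose sequence was searched. An AGATAA match was found at -132 in 1 of the 2 promoters listed for *Aqp7*, and none of these motifs matched before *Aqp1* and *Aqp11*. A match is a description of these letters and not a site.

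Each member had 1 class in which it was highest, and in female kidneys this class was the same in cells and in 3x500g nuclei for all 7. The levels by class are a description, with no test. *Aqp1* was highest in the thin limb, with 1895, 2455 and 2247 CPM in the 3 cold fresh female libraries. Endothelial cells followed with 1444, 1243 and 1430, and the proximal tubule with 261, 266 and 241. The ranges of these 3 classes did not overlap, and the macrophage class came next at 49.1 ± 22.8 (SD, n = 3).

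**Figure D1:**
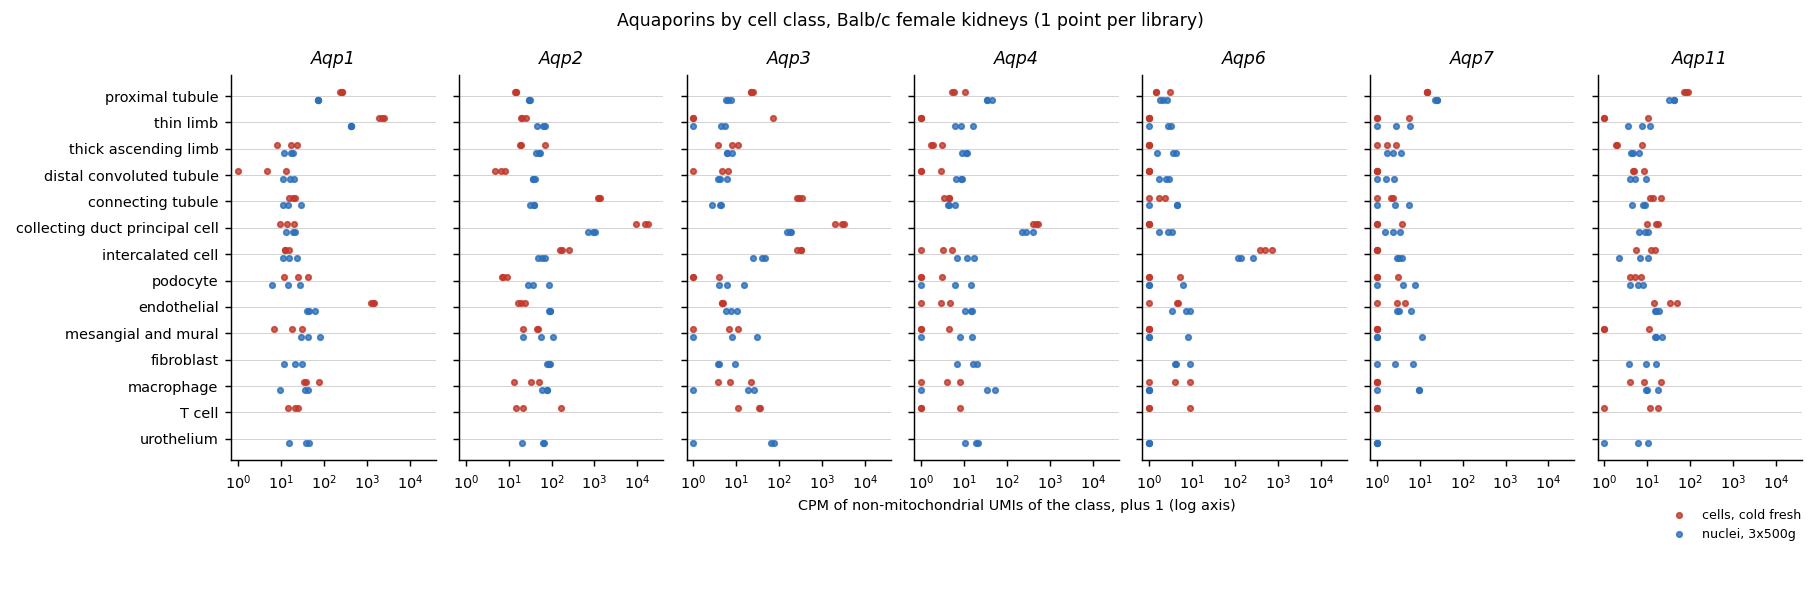
Level of each aquaporin in CPM of non-mitochondrial UMIs, plus 1, on a log axis, by cell class in Balb/c female cold fresh cells (red) and 3x500g nuclei (blue), with 1 point per library. *Aqp2*, *Aqp3* and *Aqp4* peak in collecting duct principal cells, *Aqp6* in intercalated cells, *Aqp7* and *Aqp11* in the proximal tubule, and *Aqp1* in the thin limb, and the blue points of *Aqp2* outside principal cells lie at 109 or less.

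Within these classes *Aqp1* differed between clusters. Of the female thin limb clusters, one led by *Angpt2* and *Bst1* (128 barcodes) held 3701 ± 645 CPM, and one led by *Wnt16* and *Stc2* (95 barcodes) held 19.8 ± 23.5 (n = 3 libraries each). Nuclei also held a high and a low cluster, with 530 ± 36.8 in the thin limb cluster led by *Fst* and *Htr4* and 73.2 ± 38.6 in the one led by *Nrip3*. The thin limb class thus mixed barcodes with high and with low *Aqp1*. In endothelial cells the level came from a cluster led by *Slc14a1*, the urea transporter of descending vasa recta, and *Sox17*, an arterial transcription factor. It held 4216 ± 1245 in 259 fresh cells and 436 ± 62.2 in 72 3x500g nuclei, against 37.8 ± 43.5 and 42.1 ± 36.6 in the other 2 endothelial clusters of fresh cells.

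In C57BL/6J cells a cluster led by *Fbln2*, *Sox17*, *Stmn2* and *Edn1* stayed unnamed, although it held 9 of the endothelial markers. Its *Aqp1* level was 809 CPM in cold fresh libraries (lowest 446, highest 1459, 122 barcodes) and 5945 in the 2 warm fresh libraries with at least 10 barcodes of it (5653 and 6238, 67 barcodes). After cryopreservation the levels were 549 in 227 cold cells and 2545 (1665 to 3217) in 150 warm cells. Warm libraries lay above cold libraries in both storage states with no overlap, as a description of a cluster with few cells and with no test.

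*Aqp2*, *Aqp3* and *Aqp4* shared the principal cell as their home class, but not at the same ratio in each cluster. In the 3 cold fresh female libraries *Aqp2* stood at 14819, 9491 and 17507 CPM of principal cells, and the connecting tubule, the segment before the collecting duct, followed 11-fold lower with 1269, 1176 and 1372. For *Aqp3* the levels in principal cells were 2916, 1991 and 3146, and intercalated cells (300.0 ± 31.8) and the connecting tubule (294 ± 36.5) overlapped each other at a level 8.95-fold lower. *Aqp4* was at 473, 399 and 515 in principal cells and 73.4-fold lower in the next class, the proximal tubule. A UMI of *Aqp2* was found in 88.2 to 93.4% of principal cells of these libraries at full depth. Among immune cells thinned to 500 UMIs the share was 1.24% ± 0.696 (n = 3). That is a background share, at the lower depth only, of a class that should lack the gene.

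Clusters within the duct ordered the 3 genes differently. Of the female principal cell clusters, the one led by *Ptger1* and *Elf5* (220 barcodes) held 20753 ± 6958 CPM of *Aqp2*, 3597 ± 936 of *Aqp3* and 969 ± 205 of *Aqp4*. The cluster led by *Kcne1* and *Mcoln3* (227 barcodes) held 10186, 2340 and 84.1, and the one led by *Cited4* and *Adh1* (264 barcodes) 3661, 651 and 88.7. *Aqp4* was thus high in the first of these clusters and low in the others, whereas *Aqp2* and *Aqp3* declined stepwise. In the connecting tubule, a cluster led by *Klk1* and *Kcne1* held 2667 of *Aqp2* and 5.94 of *Aqp4*, and the cluster led by *Ltc4s* and *Calb1*, the calcium-binding protein of the distal nephron, held 61.0 of *Aqp2* and none of *Aqp4*.

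**Figure D2:**
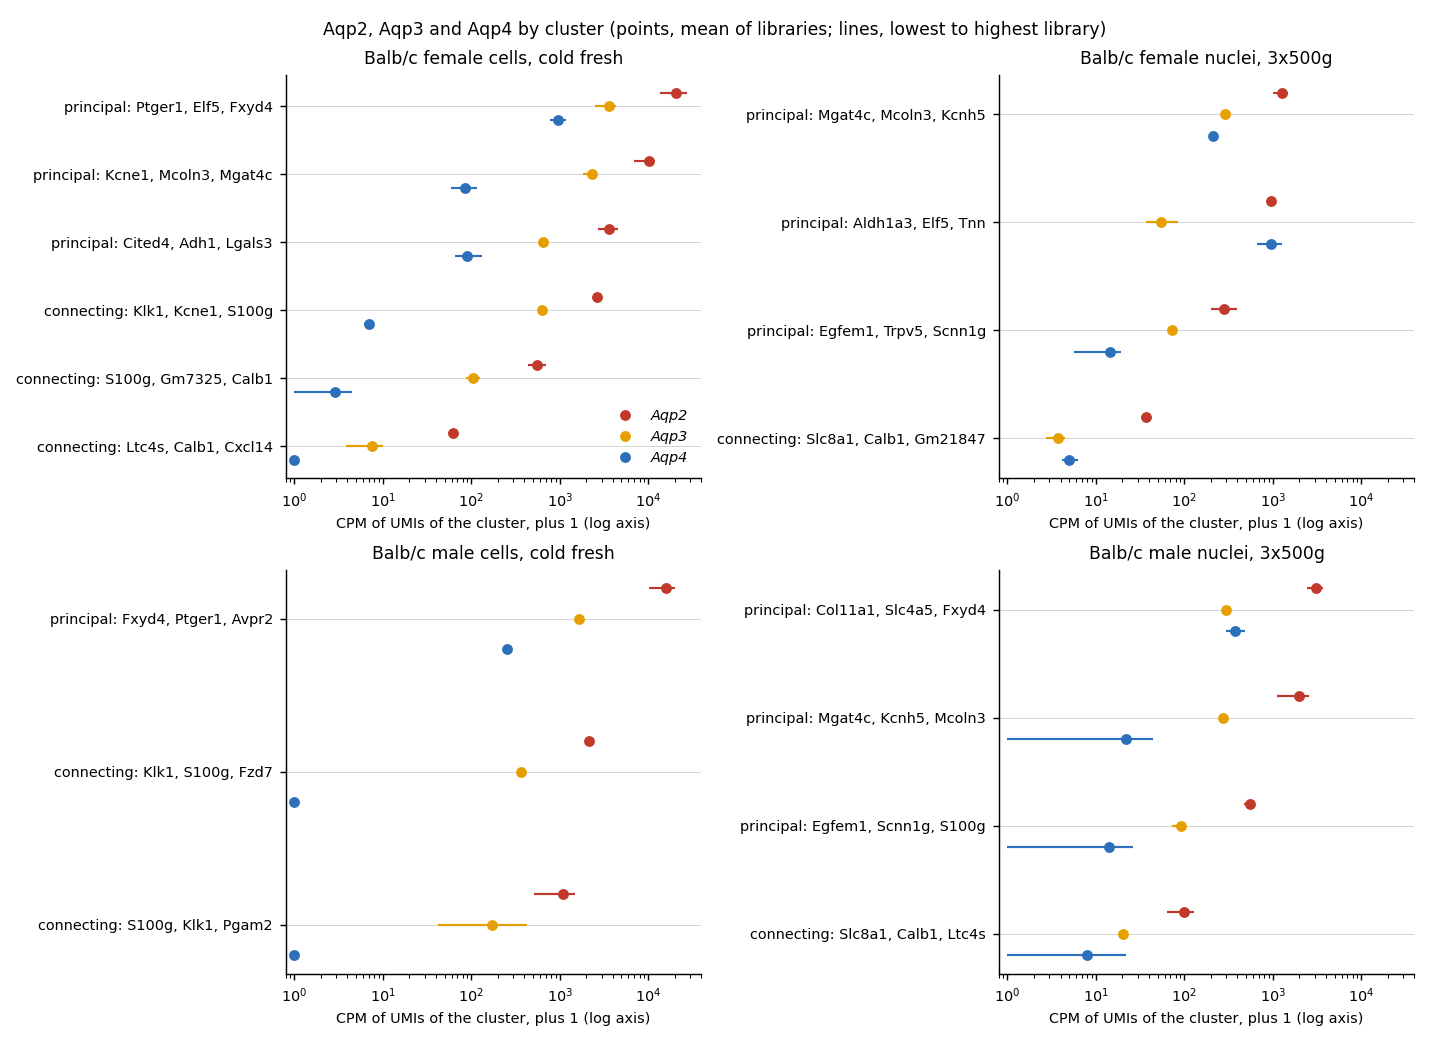
*Aqp2* (red), *Aqp3* (orange) and *Aqp4* (blue) in CPM of a cluster, plus 1, on a log axis, for clusters of the connecting tubule and principal cells in 4 sets, named by their leading genes. Points are means over libraries and lines run from the lowest to the highest library. In female cells *Aqp4* is at 969 in the cluster led by *Ptger1* and at 88.7 or less in the other clusters, and in female nuclei the cluster led by *Aldh1a3* holds 950 of *Aqp4* and 53.1 of *Aqp3*.

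Nuclei showed a cluster in which *Aqp4* and *Aqp3* parted. In female 3x500g nuclei the principal cell cluster led by *Aldh1a3* and *Elf5* (263 barcodes) held 950 ± 300 CPM of *Aqp4*, 962 of *Aqp2* and 53.1 of *Aqp3*. The cluster led by *Mgat4c* and *Mcoln3* (794 barcodes) held 208 ± 10.3 of *Aqp4*, 1277 of *Aqp2* and 292 of *Aqp3*, and the one led by *Egfem1* and *Trpv5*, the calcium channel of the connecting tubule, held 13.7, 280 and 71.7. In the 1x2000g and sucrose nuclei of the *Aldh1a3* cluster *Aqp3* was at 104 and 120 and *Aqp4* at 856 and 812. In male nuclei the cluster led by *Col11a1* and *Slc4a5* held 378 of *Aqp4* and 299.6 of *Aqp3*, against 21.1 and 276 in the cluster led by *Mgat4c*.

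Outside the collecting duct, *Aqp2* was at 91.1 CPM in the endothelial class, 84.9 in fibroblasts, 71.2 in macrophages and 62.1 in mural cells of female 3x500g nuclei, cells from which the gene is not known. The level of 880 ± 161 in principal cells was 9.65-fold above the highest of them. Class levels of *Aqp2* in nuclei at or below these are not read as expression here.

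*Aqp6* had the narrowest distribution. Intercalated cells, the acid-base cells of the duct, held 490, 736 and 378 CPM in the cold fresh female libraries, 142-fold above the next class, and 807, 730 and 842 in the cold fresh C57BL/6J libraries, 129-fold above the next. Of the intercalated cell clusters, those of type A, the cells that secrete acid, held the most. Type A clusters, marked by *Slc4a1*, the basolateral anion exchanger AE1, held 1251 ± 236 (female cells), 1509 ± 258 (male cells), 1765 ± 388 (C57BL/6J cells) and 422 ± 153 (female 3x500g nuclei). Type B clusters, marked by *Slc26a4*, the apical anion exchanger pendrin, held 5.1 ± 8.84, 22.7 ± 24.2, 49.8 ± 31.3 and, in a pair of nuclear clusters, 2.43 and 1.87. A further male cell cluster led by *Kit* and *Oxgr1* (149 barcodes) held 568 ± 107 of *Aqp6* beside 2458 of *Aqp2* and 807 of *Aqp3*, so that markers of both duct cell types met in it. Its barcodes had a median of 2.26 times the UMIs of their libraries' medians, the highest of the male cell clusters, and 12 intercalated and 10 principal cell markers were detected in it. Of its barcodes 3 were marked as doublets, and the part of merged barcodes in its levels was not tested.

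*Aqp7* and *Aqp11* were low, with their highest mean in the proximal tubule of female and C57BL/6J cells. For *Aqp7* the cold fresh female libraries held 13.5, 13.8 and 13.8 CPM of proximal tubule, 7.39-fold above the next class, and for *Aqp11* they held 78.0, 88.8 and 68.3, against 31.0 ± 16.8 in endothelial cells. In male Balb/c libraries the ranges overlapped with those of other classes, namely for *Aqp11* with endothelial cells (32.9 to 43.6 in the proximal tubule and 24.9 to 34.9) and with mural nuclei (38.3 to 48.6 and 16.2 to 49.8). *Aqp7* in male nuclei, at 23.2 ± 0.734 in the proximal tubule, overlapped with the mural (32.0 ± 15.2) and endothelial (25.5 ± 16.2) classes, whose means lay above it. In C57BL/6J cells the *Aqp7* range of the proximal tubule (12.0 to 18.3) overlapped with that of macrophages, which reached 12.8. The proximal tubule is divided into an early convoluted part (S1) and a late straight part (S3), and *Aqp7* was higher in clusters of the latter. The female nuclear S3 clusters held 63.2 ± 10.6 and 51.0 ± 9.48, and the S1 clusters with at least 282 barcodes held 6.82 to 20.4. The cluster at the upper end of that range was led by *Kcnmb2*, *Wnt16* and *Stc2*, and the others held 14.7 or less. That cluster is doubtful as proximal tubule, since it also held markers of the thin limb and of podocytes and the female cell cluster led by *Wnt16* and *Stc2* was named thin limb. In male nuclei 1 of 3 S3 clusters, led by *Bcat1* and *Cyp7b1* (2151 barcodes), held 59.7 ± 6.41, while the other 2 held 19.1 and 15.9 and the large S1 clusters 12.8 to 14.2.

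The S3 clusters with the most *Aqp7* also held *Aqp4*. In female 3x500g nuclei they held 150 ± 51.6 and 65.3 ± 13.5 CPM of *Aqp4*, against 3.78 to 5.71 in the S1 clusters with at least 648 barcodes and 36.8 in the doubtful one led by *Kcnmb2*. In male nuclei *Aqp4* was at 42.7 ± 23.2 in the cluster led by *Bcat1*, against 3.32 to 4.93 in the other large clusters. In female cells a proximal tubule cluster led by *Kap* and *Aadat* (250 barcodes) was the highest for both, with 165 ± 54.5 of *Aqp4* and 35.6 ± 11.2 of *Aqp7*, beside 468 ± 33.4 of *Aqp1*. Of the other 12 proximal tubule clusters of these cells, 11 held 2.87 or less of *Aqp4* and 1, led by *C3* and *Ptgds*, held 85.5 ± 46.0. The latter is doubtful as proximal tubule, since it also held 4 thin limb markers and a male cell cluster with *C3* and *Ptgds* among its leading genes was named thin limb.

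The genes whose levels over 12 classes were most like each member are given as a description, with Pearson's r over log2 levels and no p. The points share their libraries. Nearest to *Aqp2* were *Fxyd4*, a regulator of the sodium pump (r = 0.983 in female cells, 0.981 in female nuclei), and *Hsd11b2*, the enzyme that shields the mineralocorticoid receptor from glucocorticoids (0.975 and 0.964). *Aqp3* lay nearest to *Pde1c* (0.945) in cells and to *Mcoln3* (0.966) in nuclei, and *Aqp4* to *Wnt9b* (0.954) in cells. For *Aqp6* the nearest were *Cpsf4l* (0.96) in cells and *Bub3* (0.972) in nuclei, for *Aqp7* *Olfm3* (0.971) and *Spink6* (0.981), for *Aqp1* *Smg6* (0.921) and *Senp5* (0.964), and for *Aqp11* *Dao* (0.881) and *Tmem120a* (0.952).

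Bulk RNA-seq gave the levels of the members relative to each other, here as CPM (reads per 1000000 reads of the library) per kilobase of exons. *Aqp1* was first and *Aqp2* second in the C57BL/6J suspensions and both intact kidneys, and the female cold suspensions had *Aqp2* first at 514, 281 and 408 with *Aqp1* at 254, 275 and 245. Those ranges did not overlap, whereas in intact female kidney *Aqp1* (427, 411 and 415) and *Aqp2* (279, 231 and 450) overlapped. *Aqp3* came next and *Aqp6* after it in all 5 groups. *Aqp4*, *Aqp7* and *Aqp11* took the last places in changing order, for example at 9.88 ± 1.58, 10.4 ± 2.26 and 5.26 ± 0.534 (n = 3) in intact male kidney, where the first 2 overlap. Of the other aquaporins, *Aqp8* reached 2.09 ± 0.325 at most as a group mean, and *Aqp5*, *Aqp9* and *Aqp12* had group means of 0.236 or less.

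**Figure D3:**
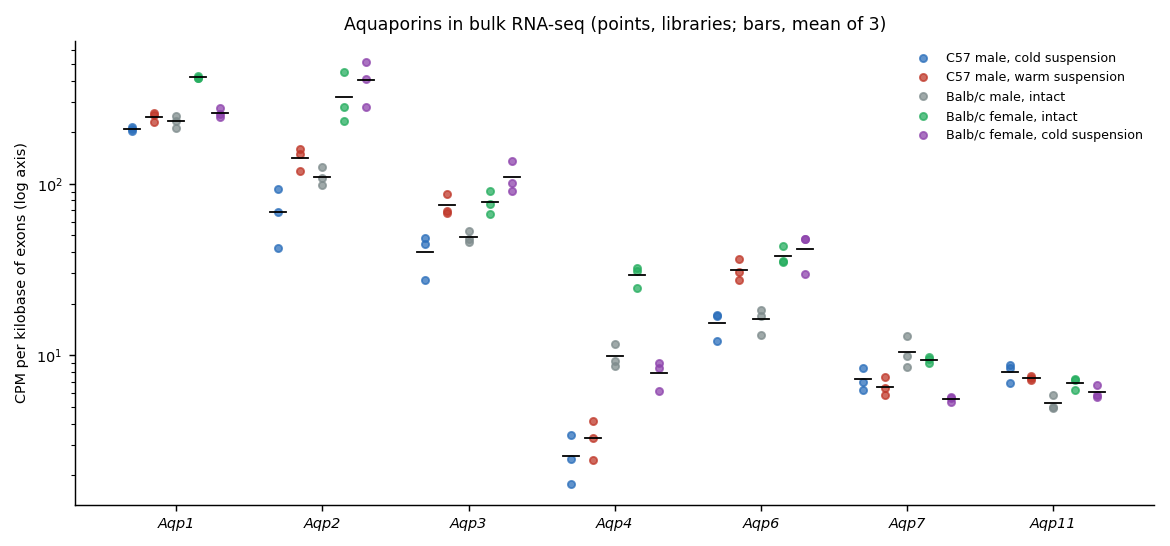
Bulk RNA-seq level of each aquaporin in CPM per kilobase of exons, on a log axis, in 5 groups of 3 libraries (colours), with 1 point per library and a bar at the mean. *Aqp2*, *Aqp3* and *Aqp6* lie higher in warm (red) than in cold (blue) C57BL/6J suspensions without overlap, and *Aqp4* lies at 24.6 to 32.2 in intact female kidney against 6.17 to 9.07 in the cold suspensions.

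The comparison of warm with cold suspensions asks what the dissociation protocol does to the recovered RNA. The enzyme, the mechanical steps and the centrifugation changed along with the temperature, so that these cannot be told apart. In bulk RNA-seq the collecting duct members *Aqp2*, *Aqp3* and *Aqp6* rose in warm suspensions. *Aqp2* stood at 68.3, 93.6 and 42.2 CPM per kilobase in the cold and 119, 148 and 159 in the warm suspensions, with no overlap. Its log2 fold change was 1.04 ± 0.198 (SE, n = 3 against 3, adjusted p = 0.00645, quasi-likelihood test of edgeR). *Aqp3* rose from 44.4, 48.0 and 27.6 to 69.6, 67.4 and 87.3 (0.88 ± 0.155, adjusted p = 0.0042) and *Aqp6* from 12.1, 17.1 and 17.0 to 27.5, 36.3 and 30.5 (1.01 ± 0.142, adjusted p = 0.000925), again without overlap. These were 3 of the 7 members, where 8.68% of the 14102 genes tested were called, 5.42% higher and 3.26% lower.

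The other 4 members were not called in bulk suspensions. *Aqp1* (log2 fold change 0.21 ± 0.0676, adjusted p = 0.0845) and *Aqp4* (0.34 ± 0.217, adjusted p = 0.404) were fitted above 0, and *Aqp7* (-0.18 ± 0.131, adjusted p = 0.49) and *Aqp11* (-0.16 ± 0.0922, adjusted p = 0.352) below it. Without the filter on low counts *Aqp1* was called (0.22, adjusted p = 0.047). In bulk samples a larger number of cells of a type and more RNA per cell cannot be told apart. Markers of principal cells moved with the members, with 8 of 10 higher (median 1.06, summed level 539 to 736 CPM in cold and 919 to 1256 in warm suspensions), as did 10 of 13 intercalated markers (median 0.905, 420 to 488 against 744 to 882). Of the proximal tubule markers 1 of 10 was lower, and of those of S1 all 6 were lower (4294 to 4918 in warm against 5968 to 6627 in cold suspensions). The part of these shifts in the members' change was not tested.

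The genes around the aquaporins in the vasopressin pathway were read from lists, beside the 5.42% of all genes called higher and 3.26% called lower. Of 16 genes of vasopressin signalling and vesicle traffic 2 rose in the warm suspensions, *Avpr2*, the vasopressin V2 receptor (1.29 ± 0.16, adjusted p = 0.000388), and *Adcy6*, an adenylyl cyclase (0.36, adjusted p = 0.019). Transcription factors of the collecting duct rose in 5 of 7 cases, among them *Foxi1*, the intercalated cell factor (1.02), *Gata2* (0.84), *Nr3c2*, the mineralocorticoid receptor (0.80), and *Gata3* (0.78). Of 7 osmolyte and urea transport genes the urea transporter *Slc14a2* (1.15) and the inositol transporter *Slc5a3* (0.47) rose, and of 3 glycerol genes tested *Gpd1* fell (-0.30).

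Within cell classes no member was called between the same protocols. For *Aqp2* the principal cell levels were 12363, 13007 and 13451 CPM in cold and 12787, 8493 and 15129 in warm fresh cells, which overlap (log2 fold change -0.07 ± 0.245, adjusted p = 0.929, edgeR). None of 6 pairs of member and class was called by edgeR at an adjusted p of 0.05 or by DESeq2, and 1 of 6, *Aqp11* in the proximal tubule, had an unadjusted p under 0.05. Of all genes, 2.87% were called in principal cells, 6.51% in the proximal tubule and 1.66% in the thin limb. *Aqp11* was at 61.8, 48.1 and 48.0 in cold and at 64.0, 65.7 and 63.9 in warm proximal tubule (0.37 ± 0.134, adjusted p = 0.107), and without the cold fresh library of replicate 1 it passed the threshold (0.50, adjusted p = 0.0281). *Aqp4* and *Aqp6* were not tested, because they were listed at 0 in 3 and in 1 of the warm libraries.

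Intact female kidney was compared with the cold suspension. The intact kidneys had been flash-frozen, so that freezing and dissociation cannot be told apart. *Aqp4* showed the largest difference of the members, with 30.9, 24.6 and 32.2 CPM per kilobase in intact kidney and 9.07, 6.17 and 8.45 in suspension (log2 fold change 1.90 ± 0.146, adjusted p = 2.49e-05). *Aqp1* was at 427, 411 and 415 against 254, 275 and 245 (0.71 ± 0.0619, adjusted p = 5.5e-05), and *Aqp7* at 9.83, 9.45 and 9.03 against 5.32, 5.62 and 5.74 (0.78 ± 0.0746, adjusted p = 9.82e-05). None of these 3 members overlapped between the groups, and the share of all genes without overlap was not computed. All 3 were higher in intact kidney, where 20% of 16538 genes were called, 12.1% higher and 7.91% lower.

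The other 4 members were not called. *Aqp2* (-0.32 ± 0.252, adjusted p = 0.435), *Aqp3* (-0.47 ± 0.149, adjusted p = 0.0526) and *Aqp6* (-0.12 ± 0.157, adjusted p = 0.644) were fitted below 0, and *Aqp11* above it (0.20 ± 0.082, adjusted p = 0.132). Without replicate 3 of intact kidney, *Aqp3* (-0.58, adjusted p = 0.0273) and *Aqp11* (0.27, adjusted p = 0.0314) were called as well, so that 5 of 7 passed. Without replicate 2 of the suspensions *Aqp3* was also called (-0.60, adjusted p = 0.0242), and without replicate 3 *Aqp6* was (-0.31, adjusted p = 0.0367). *Aqp3* was also called by the exact test of edgeR (adjusted p = 0.014), without the filter on low counts (0.013) and with library totals alone (0.0466). Here and below, library totals are sums over the genes that passed this filter, in a bulk library or in a class of a library.

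Markers of the straight proximal tubule moved with *Aqp4* and *Aqp7*. Of the S3 markers 5 of 7 were higher in intact kidney (median 1.75), and their summed level was 1543 to 1718 CPM against 311 to 352 in suspension. Thin limb markers were higher in 6 of 10 cases (median 0.824, 403 to 682 against 298 to 338), whereas principal cell markers were higher in 1 and lower in 5 of 10 (median -0.441, 1261 to 1517 against 1493 to 1774). Adipocyte markers, of interest because fat cells are known to use AQP7 for glycerol, summed to 3.98 to 17.5 against 2.62 to 3.59, with reads for 6 or 7 of the 7 markers in intact kidney and for 2 to 4 in suspension libraries. The part of these classes in the difference was not tested. The lists of genes around the members are read beside the 12.1% of all genes called higher and 7.91% called lower. Around the members, 5 of 7 osmolyte and urea genes were higher in intact kidney, among them the aldose reductase gene *Akr1b3* (1.41), the betaine transporter *Slc6a12* (1.03) and *Slc14a2* (0.96), and so were *Gpd2* (0.94) and *Gk* (0.55) of 3 glycerol genes tested. The share called of the vasopressin list was near that of all genes, with 3 of 16 higher (*Prkar2b* 1.35, *Adcy3* 1.10 and *Myo5b* 0.47) and 1 lower (*Vamp2* -0.35), and of the transcription factors *Gata3* (-0.63) and *Gata2* (-0.48) were lower.

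Cryopreservation was compared with fresh cells in 3 settings, and in female Balb/c cells it changed 4 of 7 pairs of member and class. The female fresh and cryopreserved cells were aliquots of suspensions per the study, but could not be paired, so that the fit ignores this. *Aqp6* rose in intercalated cells from 490, 736 and 378 to 1525, 1111 and 1231 CPM (log2 fold change 1.18 ± 0.168, adjusted p = 3.08e-05, edgeR), with 6.32% of genes called in that class. The make-up of the class moved with it, since the type A cluster held 138 of 535 fresh and 335 of 414 cryopreserved barcodes, while within this cluster *Aqp6* was at 983 to 1433 fresh and 1479 to 1796 cryopreserved. *Aqp4* rose in principal cells from 473, 399 and 515 to 580, 1171 and 706 (0.85 ± 0.193, adjusted p = 0.0153; 2.6% of genes called).

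That call of *Aqp4* was lost without cryopreserved replicate 2 (0.51, adjusted p = 0.126), fresh replicate 1 (0.88, 0.097) or fresh replicate 2 (0.77, 0.111). Its cluster led by *Ptger1* held 220 of 711 fresh and 243 of 423 cryopreserved principal cells, at 969 ± 205 and 1246 ± 446 CPM, which overlap. *Aqp2* (14135, 18747 and 10048 after storage; 0.08 ± 0.19, adjusted p = 0.904) and *Aqp3* (3023, 3409 and 2246; 0.15 ± 0.164, adjusted p = 0.743) of the same cells were not called.

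In the proximal tubule both tested members fell. *Aqp1* went from 261, 266 and 241 to 111, 203 and 179 CPM (-0.94 ± 0.15, adjusted p = 8.79e-05) and *Aqp11* from 78.0, 88.8 and 68.3 to 50.5, 57.1 and 57.2 (-0.84 ± 0.191, adjusted p = 0.00249), with 28.6% of genes called. The cryopreserved libraries held 92 to 162 proximal tubule barcodes against 2136 to 3915 in fresh ones, and 9 of 10 markers of the class fell (median -0.859). The part of these shifts was not tested. Within the S1 cluster led by *Snhg11* and *Chrna4*, *Aqp1* was at 201 ± 20.5 in 985 fresh and 184 ± 74.5 in 86 cryopreserved cells. *Aqp1* in the thin limb was not called (1079, 2428 and 1448 after storage; -0.46 ± 0.215, adjusted p = 0.384; 1.94% of genes called), but without cryopreserved replicate 2 it was (-0.84, adjusted p = 0.0308). *Aqp7*, at 30.3 and 33.1 in the proximal tubule of the 2 cryopreserved libraries that list it, was not tested.

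C57BL/6J cells lost nearly all proximal tubule cells on cryopreservation, which limits the test of *Aqp1*. Only 36 cold and 44 warm barcodes remained, with 3 and 2 UMIs of *Aqp1* in the libraries with at least 10 of them. *Aqp1* was called lower after cold (-2.78 ± 0.602, adjusted p = 0.000383; 23.4% of genes called) and warm dissociation (-3.05 ± 0.665, adjusted p = 0.000348; 23.5%). DESeq2 called the cold change (-2.71, adjusted p = 0.00938) but not the warm one (-2.68, adjusted p = 0.053), and the median of all genes of the class lay at -1.82 and -1.39 in these fits. When scaled to library totals alone the changes were -1.35 (adjusted p = 0.263) and -1.95 (adjusted p = 0.0994), and with aliquots of 1 suspension as a block the cold change could not be tested, while the warm one was -3.08 (adjusted p = 0.00162). Without cryopreserved replicate 2 the cold change was -2.12 (adjusted p = 0.0646). With any 1 of the warm fresh libraries left out, *Aqp1* of the proximal tubule did not enter the test. Of the other pairs tested, 4 after cold and 3 after warm dissociation, none was called by edgeR, where 2.49% and 8.03% of genes were called in principal cells, 6.16% in cold intercalated cells, and 3.93% and 0.741% in the thin limb. *Aqp1* in the thin limb, at 646, 826 and 1275 after cold dissociation and storage (-0.83, adjusted p = 0.105), was called without cold fresh replicate 2 (-1.09, adjusted p = 0.0359) or cryopreserved replicate 3 (-1.13, adjusted p = 0.0448), and with doublets removed (-1.11, adjusted p = 0.0237). For *Aqp2* the cold levels were 10897, 12826 and 14483 (0.01 ± 0.204, adjusted p = 0.991) and the warm ones 6571, 14481 and 9032 (-0.11 ± 0.305, adjusted p = 0.877), and without the warm cryopreserved library of replicate 1 the latter was 0.14. Without that library *Aqp3* after warm dissociation was at -0.31 (-0.50 with it) and *Aqp1* at 0.36 in the thin limb (0.61 with it) and -3.67 in the proximal tubule (adjusted p = 0.00147). The share of genes called was not computed without it. At a coarser clustering (Leiden resolution 1) *Aqp3* after warm dissociation was called (-1.09, adjusted p = 0.0477).

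Whether the storage change differed between Balb/c female and cold C57BL/6J cells was tested as an interaction, and edgeR called 0 of 5 pairs. At an unadjusted p under 0.05 there were 2, *Aqp1* in the proximal tubule (1.92 ± 0.72, adjusted p = 0.0685) and *Aqp6* (0.97 ± 0.285, adjusted p = 0.158). The shares of genes called were 15.7% in the proximal tubule, 0.211% in the thin limb, 0.169% in principal and 0.264% in intercalated cells, and no DESeq2 fit was run. Strain, sex, age, batch, chemistry, storage time and handling on thawing cannot be told apart here. *Aqp1* was called without Balb/c cryopreserved replicate 1 (2.16, adjusted p = 0.0169) and *Aqp6* without Balb/c fresh replicate 2 (1.29, adjusted p = 0.0461).

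**Figure D4:**
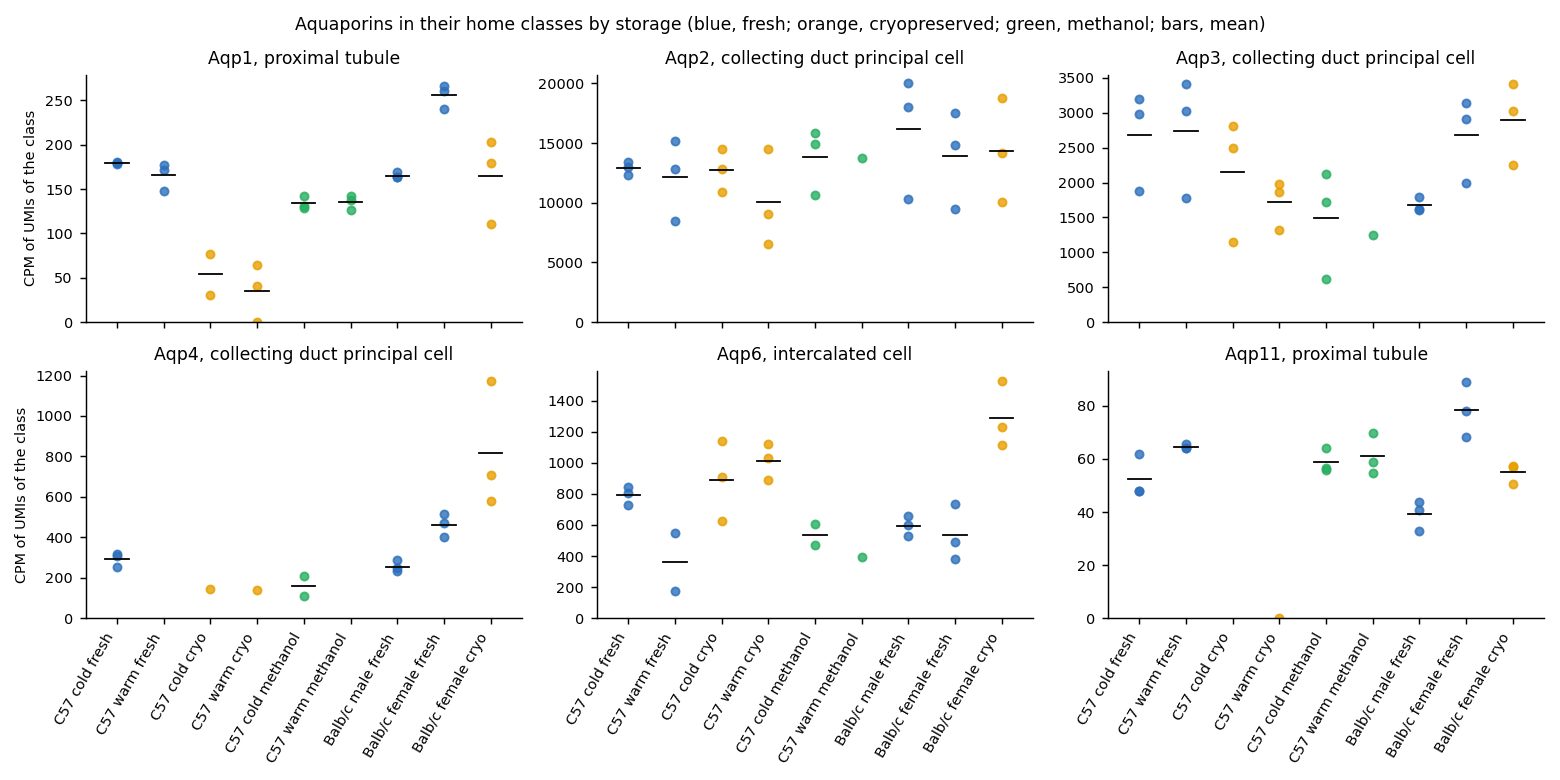
Levels of 6 aquaporins in their home classes, in CPM of the class, in fresh (blue), cryopreserved (orange) and methanol-fixed (green) cells, with 1 point per library that holds at least 10 barcodes of the class and lists the gene, and a bar at the mean. In Balb/c female cells *Aqp6* lies at 1111 to 1525 after cryopreservation against 378 to 736 fresh, while *Aqp2* overlaps between these fresh and cryopreserved libraries.

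Methanol fixation of cold C57BL/6J cells lowered 3 of 6 pairs of member and class by edgeR and 1 of 6, *Aqp1* in the proximal tubule, by DESeq2. With any 1 library left out, edgeR called 1 or 2 of the 5 or 6 pairs fitted again. *Aqp1* in the thin limb was at 1421 and 1823 CPM in the 2 fresh libraries with enough cells and at 143 and 497 in the 2 fixed ones, which rest on 8 and 11 UMIs (log2 fold change -2.81 ± 0.389, adjusted p = 0.00148, edgeR; 7.12% of genes called). DESeq2 (adjusted p = 0.107) and a fit without the filter on low counts (0.738) did not call it. *Aqp3* in principal cells went from 3201, 2977 and 1873 to 2119, 1718 and 622 (-0.94 ± 0.277, adjusted p = 0.026; 18.1%), which overlap. This call was lost with DESeq2 (-0.86, adjusted p = 0.409), without fixed replicate 3 (-0.58, adjusted p = 0.0825), without fresh replicate 2 (-0.87, adjusted p = 0.056), with library totals alone (-0.77, adjusted p = 0.0996) and at the coarser clustering (-0.56, adjusted p = 0.168).

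*Aqp1* in the proximal tubule went from 179, 178 and 181 to 142, 131 and 129 without overlap (-0.36 ± 0.0984, adjusted p = 0.0224; 21.8% of genes called). The adjusted p lay between 0.051 and 0.108 without fresh replicate 2 or 3 or any 1 fixed replicate, and with library totals alone the change was -0.16 (adjusted p = 0.407). Library totals include mitochondrial UMIs here, unlike the CPM. These made up 26.1 to 31.7% of the UMIs of cold fresh libraries and 15 to 20.4% of those of cold fixed ones. In the proximal tubule, *Aqp7* went from 12.0, 18.3 and 14.2 to 11.9, 8.93 and 8.68 (-0.58 ± 0.238, adjusted p = 0.0997), and with aliquots of 1 suspension as a block it was called (-0.59, adjusted p = 0.0432). *Aqp2* in principal cells, at 15844, 14915 and 10678, was not called (0.00 ± 0.211, adjusted p = 0.997), and neither was *Aqp11* (0.23 ± 0.142, adjusted p = 0.281). At the coarser clustering *Aqp2* was called higher (0.58, adjusted p = 0.0426).

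In principal cells 8.53% of genes were called higher and 9.55% lower after fixation. Of the 3 transcription factors tested all 3 fell, namely *Gata3* (-1.25), *Tfcp2l1* (-1.19) and *Gata2* (-0.83), as did 5 of 10 principal cell markers (median -0.476), the osmolyte factor *Nfat5* (-1.20) and *Adcy6* (-1.79). *Aqp2* also appeared in cells that should lack it. Immune cells of the fixed libraries, thinned to 500 UMIs, held an *Aqp2* UMI in 3.2, 4.48 and 2.53% of barcodes, against 1.56, 0.386 and 0.322% in the fresh libraries. The libraries did not overlap, at means of 3.40% ± 0.989 and 0.757% ± 0.698 (SD, n = 3 each; exact two-sided permutation test, p = 0.1, the smallest that 3 against 3 libraries allow). The difference of 2.65 percentage points was 5.46 without thinning, where the fixed libraries held 6.29, 9.56 and 5.01% and the fresh ones 2.75, 0.94 and 0.785%, and 5.13 when thinned to 1000 UMIs.

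After warm dissociation and methanol fixation, only the proximal tubule members could be tested. *Aqp4* and *Aqp6* were listed at 0 in 6 and in 3 of the libraries, and the principal cell and thin limb classes lay below the minimum of barcodes. In the proximal tubule edgeR and DESeq2 called 0 of 3, where 11.9% of genes were called. *Aqp1* was the only one with an unadjusted p under 0.05, at 148, 177 and 171 fresh and 127, 138 and 142 fixed (-0.30 ± 0.114, adjusted p = 0.114). With aliquots of 1 suspension as a block it was called (-0.31, adjusted p = 0.0204). *Aqp7* (-0.54 ± 0.268, adjusted p = 0.225) and *Aqp11* (-0.06 ± 0.131, adjusted p = 0.843) were not.

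Nuclei were compared with cold fresh cells of the same strain and sex, with intronic reads counted in nuclei but not in cells. The nuclei came from flash-frozen, stored kidneys and the cells from fresh suspensions, so that freezing, storage, dissociation and nuclear fraction cannot be told apart. Most genes of a class differ in this comparison, with 80.4% (proximal tubule), 74.6% (principal cells), 74% (intercalated cells) and 87.6% (thin limb) called in males and 85.2%, 79.1%, 76.4% and 78.8% in females. The sizes are therefore of more use than the calls. Unlike the members, genes listed at 0 in a library stayed in these shares and in the medians over all genes. Such genes numbered 5409 to 6658 of 16524 in male cell libraries and 781 to 1121 in male nuclei. In females they numbered 289 to 750 of 14310 in cells and 1198 to 1803 of 18679 in 3x500g nuclei. Shares without them are not given here. Cells and nuclei were also clustered separately, so that a class of nuclei was matched to a class of cells by its name.

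*Aqp2* and *Aqp3* showed the largest differences of the members. In females *Aqp2* went from 14819, 9491 and 17507 CPM in principal cells to 1026, 707 and 905 in 3x500g nuclei (log2 fold change -4.15 ± 0.238, adjusted p = 2.89e-12, edgeR), and in males from 20062, 18041 and 10321 to 1656, 1705 and 1091 (-3.45 ± 0.287, adjusted p = 1.86e-13). *Aqp3* went from 2916, 1991 and 3146 to 190, 174 and 147 in females (-4.15 ± 0.184, adjusted p = 4.84e-14) and from 1610, 1789 and 1625 to 185, 194 and 168 in males (-3.20 ± 0.217, adjusted p = 4.52e-16). No library of nuclei reached a library of cells for either gene. The third member of these cells, *Aqp4*, differed less, from 473, 399 and 515 to 219, 280 and 395 in females (-0.81 ± 0.17, adjusted p = 0.000217) and from 248, 286 and 232 to 131, 85.3 and 86.7 in males (-1.35 ± 0.252, adjusted p = 1.19e-05). The nuclear class includes the cluster led by *Egfem1* (926 of 1818 male and 541 of 1598 female nuclei), which also held connecting tubule markers, whereas in cells the connecting tubule clusters stood apart. At a coarser clustering, where the male nuclear cluster led by *Egfem1* was named connecting tubule, the male change of *Aqp4* was -0.47 (adjusted p = 0.112), that of *Aqp2* -2.80 and that of *Aqp3* -2.66, while the female changes were -0.82, -4.15 and -4.15. *Aqp6* went from 490, 736 and 378 to 116, 258 and 142 in female intercalated cells (-2.06 ± 0.238, adjusted p = 6.21e-08) and from 655, 601 and 530 to 93.7, 127 and 99.5 in male ones (-2.56 ± 0.214, adjusted p = 2.97e-13).

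The proximal tubule members depended on the scaling. In females *Aqp1* went from 261, 266 and 241 to 71.7, 72.2 and 70.7 (-2.60 ± 0.0976, adjusted p = 1.01e-09; -1.84 with library totals alone) and *Aqp11* from 78.0, 88.8 and 68.3 to 31.7, 40.7 and 41.2 (-1.82 ± 0.139, adjusted p = 3.45e-07; -1.06 with library totals). *Aqp7* was at 13.5, 13.8 and 13.8 in cells and 24.2, 22.2 and 24.7 in nuclei, a change of 0.03 ± 0.114 (adjusted p = 0.831) that became 0.79 (adjusted p = 3.54e-05) with library totals. In males *Aqp1* went from 164, 169 and 163 to 134, 137 and 125 (-0.80 ± 0.129, adjusted p = 8.16e-05; -0.32 with library totals), and *Aqp11* (43.6, 32.9 and 40.9 against 48.6, 38.9 and 38.3) was not called, at -0.34 ± 0.19 (adjusted p = 0.116) and 0.14 with library totals. The male median of all genes in the proximal tubule was 0.76 and the female one 0.15.

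In the thin limb *Aqp1* fell in female nuclei from 1895, 2455 and 2247 to 421, 435 and 435 (-2.60 ± 0.147, adjusted p = 1.06e-12). In males the cells held 2034, 1306 and 1206 and the nuclei 852, 254 and 826, without overlap, while the fit gave 0.00 ± 0.314 (adjusted p = 0.988) at a median of -0.795 over all genes of this small class. With library totals, here sums over the 788 genes tested in the class, the male change was -0.85 (adjusted p = 0.0134). With DESeq2 it was -1.20 (adjusted p = 0.00941), and without male fresh replicate 3 it was -0.80 (adjusted p = 0.0183). In all, 5 of 7 pairs were called in males and 7 of 8 in females. Without male nuclei replicate 1, *Aqp11* was called in males as well (-0.49, adjusted p = 0.0227).

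**Figure D5:**
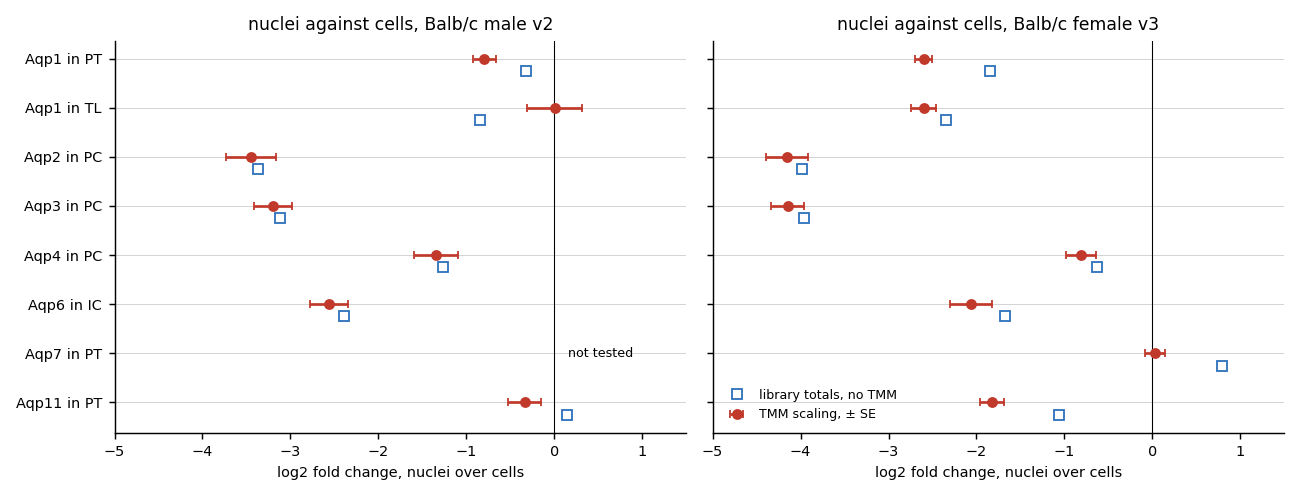
Log2 fold change of each aquaporin in its home class between 3x500g nuclei and cold fresh cells, in Balb/c male (left) and female (right) kidneys, with TMM scaling (red, ± SE) and with library totals alone (blue squares). PT, proximal tubule; TL, thin limb; PC, principal cell; IC, intercalated cell. *Aqp2* and *Aqp3* lie at -4.15 to -3.20 in both sexes, *Aqp4* at -1.35 and -0.81, and the blue squares of the proximal tubule members lie to the right of the red points.

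In principal cells 41.5% of all genes were called higher and 37.6% lower in female nuclei, and 44.7% and 29.9% in male nuclei. Of the vasopressin list 6 were higher and 5 lower of 15 tested in females, a share called below that of all genes, among them *Pde4d*, a cyclic AMP phosphodiesterase (5.64), *Prkar2b*, a subunit of protein kinase A (4.77), *Gnas*, the stimulatory G protein (-2.81), and *Rab11a*, a vesicle GTPase (-2.28), and in males 4 were higher and 3 lower of 11, again below it. The transcription factor *Nr3c2* (4.69 female, 4.90 male) and the osmolyte factor *Nfat5* (2.21, 2.28) were higher in nuclei of both sexes, and *Akr1b3* was lower (-1.01, -3.67). Principal cell markers were lower in 7 and higher in 2 of 10 in females (median -1.47) and lower in 6 and higher in 2 in males (median -0.855).

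The change from cells to nuclei differed between female and male kidneys for 2 of 7 pairs. In the proximal tubule *Aqp1* fell more in females by 1.88 on the log2 scale (SE 0.167, adjusted p = 3.12e-07) and *Aqp11* by 1.56 (SE 0.241, adjusted p = 6.28e-05), where 47.9% of genes were called and the median of all genes was -0.826. With library totals alone the differences were -1.54 and -1.21, and *Aqp1* in the thin limb (-1.23, adjusted p = 0.0253) and *Aqp3* (-0.80, adjusted p = 0.0281) were called as well. For *Aqp2* (-0.34 ± 0.369, adjusted p = 0.62), *Aqp3* (-0.59 ± 0.268, adjusted p = 0.172), *Aqp4* (0.90 ± 0.326, adjusted p = 0.0736), *Aqp6* (0.81 ± 0.348, adjusted p = 0.0835) and *Aqp1* in the thin limb (-0.65 ± 0.355, adjusted p = 0.3) a difference was not called. In those classes 10.2% (principal cells), 25.9% (intercalated cells) and 4.39% (thin limb) of genes were called. Sex, age, breeding history, batch and chemistry cannot be told apart here. At a coarser clustering the difference of *Aqp4* was -0.03 (adjusted p = 0.979) and *Aqp3* was called (-1.16, adjusted p = 0.00707), and with RLE size factors *Aqp4* was called (0.98, adjusted p = 0.0487).

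Several of these differences rested on single libraries. *Aqp3* was called without male fresh replicate 1 (-1.03, adjusted p = 0.023) or 2 (-1.22, adjusted p = 0.00367), *Aqp1* in the thin limb without male fresh replicate 3 (-1.37, adjusted p = 0.0142), *Aqp4* without male nuclei replicate 1 (1.18, adjusted p = 0.0312) or female nuclei replicate 1 (1.06, adjusted p = 0.0281), and *Aqp6* without female fresh replicate 2 (1.13, adjusted p = 0.0173) or female nuclei replicate 1 (1.04, adjusted p = 0.0151). Other libraries left out moved them towards 0. The difference of *Aqp4* fell to 0.22 (adjusted p = 0.747) without male fresh replicate 2 and to 0.48 (adjusted p = 0.421) without male fresh replicate 1. The values nearest to 0 of the others were 0.43 for *Aqp6* (without female nuclei replicate 2), -0.23 for *Aqp1* in the thin limb (without female nuclei replicate 1), -0.44 for *Aqp3* (without female fresh replicate 3) and -0.0664 for *Aqp2* (without male fresh replicate 3).

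The ways of making nuclei were compared in females, against the 3x500g libraries in both cases, so that these comparisons share their controls. The protocols also differed in homogenization, lysis and straining, and the sucrose protocol also in DNase, spin speed and the lack of sorting. These steps cannot be told apart. Between sucrose and 3x500g nuclei 4 of 8 pairs differed. *Aqp4* in principal cell nuclei was at 219, 280 and 395 CPM in 3x500g and 192, 153 and 128 in sucrose nuclei (log2 fold change -0.77 ± 0.176, adjusted p = 0.0041, edgeR), without overlap. *Aqp3* was at 190, 174 and 147 against 233, 240 and 230 (0.59 ± 0.115, adjusted p = 0.00136), in the opposite direction and also without overlap. For *Aqp2*, 1026, 707 and 905 stood against 1148, 1042 and 991, which overlap (0.40 ± 0.136, adjusted p = 0.0384), and 26.8% of genes of principal cells were called.

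The cluster make-up moved with these 3 genes. The cluster led by *Aldh1a3* and *Elf5*, with the most *Aqp4*, held 263 of 1598 principal cell nuclei in 3x500g and 143 of 1600 in sucrose libraries. Within it *Aqp4* was at 950 ± 300 and 812 ± 81.9. Of the osmolyte list the urea transporters *Slc14a2* (-1.90) and *Slc14a1* (-1.46) fell with *Aqp4*, and *Elf5* fell by 0.59 on the log2 scale. The call of *Aqp2* was lost without any 1 of these libraries except 3x500g replicate 1, with adjusted p values of 0.0658 to 0.134 and changes between 0.23 (without 3x500g replicate 2) and 0.44 (without sucrose replicate 3). It was also lost with DESeq2 (0.37, adjusted p = 0.0634) and with library totals alone (0.27, adjusted p = 0.0863).

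*Aqp6* fell in sucrose nuclei from 116, 258 and 142 to 88.5, 84.6 and 97.9 CPM of intercalated cells, without overlap (-0.81 ± 0.226, adjusted p = 0.0233; 18.8% of genes called). Type A nuclei numbered 376 of 820 and 362 of 871, at 422 ± 153 and 252 ± 17.0. Without 3x500g replicate 2, the highest library, the change was -0.40 (adjusted p = 0.0968), and without sucrose replicates 1 or 2 it was -0.78 (0.0792) or -0.73 (0.0853). In the proximal tubule (34.7% of genes called) and the thin limb (13.9%) no member was called, with *Aqp1* at 72.8, 84.8 and 64.1 (0.04 ± 0.106, adjusted p = 0.799) and 491, 437 and 381 (0.14 ± 0.142, adjusted p = 0.553). At the coarser clustering *Aqp1* was called in the thin limb (0.50, adjusted p = 0.0299).

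Between 1x2000g and 3x500g nuclei 3 of 8 pairs differed, each higher in 1x2000g nuclei. *Aqp1* in the thin limb was at 421, 435 and 435 in 3x500g and 590, 594 and 588 in 1x2000g nuclei, without overlap (0.54 ± 0.111, adjusted p = 0.00484; 10.2% of genes called), and 5 of 10 thin limb markers were higher and 1 lower with it. *Aqp3* in principal cell nuclei was at 256, 208 and 240, above all 3x500g libraries (0.55 ± 0.131, adjusted p = 0.0125; 15.9%), and the call was lost without 3x500g replicate 3 (0.44, adjusted p = 0.0803) or 1x2000g replicate 3 (0.54, adjusted p = 0.0513). *Aqp1* in the proximal tubule was at 80.6, 82.8 and 87.0 (0.22 ± 0.0632, adjusted p = 0.0418; 23.3%), and this call was lost when any 1 library was left out, with changes of 0.19 to 0.24 and adjusted p values of 0.0704 to 0.142. It was lost too with DESeq2 (adjusted p = 0.0617), RLE size factors (0.0584) and no filter on low counts (0.0565).

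The remaining members of 1x2000g nuclei were not called, among them *Aqp2* at 1561, 881 and 1110 (0.52 ± 0.203, adjusted p = 0.101) and *Aqp6* (0.06 ± 0.22, adjusted p = 0.903), with 9.94% of genes of intercalated cells called. Without 1x2000g replicate 2 *Aqp2* was called (0.71, adjusted p = 0.0247). The endothelial cluster with *Slc14a1* and *Sox17* among its leading genes, in which *Aqp1* was at 436 ± 62.2 in 3x500g nuclei, held 1357 ± 745 in 112 nuclei of 1x2000g and 1142 ± 193 in 80 sucrose nuclei.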

How the data were processed

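The values used were the count tables that the authors deposited for cells, nuclei and bulk RNA of mouse kidney. Per the labels and the study's methods, droplet reads were counted with Cell Ranger 2.1.1 on mm10 (exonic reads in cells, intronic and exonic reads in nuclei), barcodes were chosen with EmptyDrops and filtered on genes, UMIs and mitochondrial share, and genes in fewer than 10 cells were removed. Bulk reads were trimmed with Trim Galore, aligned with STAR 2.6.1a, and counted with featureCounts on GRCm38. Bulk libraries of C57BL/6J and male Balb/c mice used ribosomal RNA depletion and those of female mice poly(A) selection. Whether the bulk reads were counted by strand is not given in the sources used here.

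The 5 sets of cells or nuclei were clustered separately (2000 variable genes without aquaporins, 30 components, 20 neighbours, Leiden resolution 2, leidenalg 0.10.2), and classes were named from at least 3 detected markers. Among classes that met this, the one with the most markers among the 10 leading genes was taken. Clusters stayed unnamed for many doublets, markers of 2 lineages, leading genes of immune cells or another class, or low UMIs without a leading marker. The naming was refined after the clusters were seen. Barcodes marked as doublets (0.639 to 7.45% per library) were kept. Levels used non-mitochondrial UMIs, because mitochondrial genes were not listed for nuclei and male Balb/c cells. Counts were summed per library and class and compared in edgeR 4.0.16 by its quasi-likelihood F-test (R 4.3.3, TMM scaling, filterByExpr, Benjamini-Hochberg adjustment over all genes of the class, adjusted p of 0.05) where each group had at least 2 libraries with 10 barcodes. The SE of an edgeR change was derived from this test, as the size of the log2 fold change divided by the square root of F. A member listed at 0 in a library of the comparison was not tested. Shares and medians over all genes kept the genes listed at 0 in a library. Figures used matplotlib 3.10.9, and other steps used numpy 2.4.6, scipy 1.17.1 and pandas 2.3.3. In simulated data for the bulk comparison of suspensions, 200 of 14102 genes were changed. Of those changed by 1 on the log2 scale 83 of 100 were recovered, and of those changed by 2 97 of 100. Beside these recovered genes, 23 unchanged genes were called. For the sucrose comparison in principal cells, with 200 of 10815 genes changed, the counts were 77 of 100, 95 of 100 and 11.

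Named genes were the members in every comparison, called genes of 4 pathway lists (up to 4 per list and comparison, largest change first) and the genes nearest to each member by Pearson's r. The members and lists were chosen with earlier results of these data known. Cluster and marker genes beyond these were chosen after their values were seen. Alternatives were DESeq2 1.42.0, the exact test of edgeR for bulk, other scalings, no filter, a fold threshold, a coarser clustering, removal of doublets, and each library left out. Library totals without TMM, genes listed at 0 left out and the block of aliquots were added after seeing the data. These totals were summed over the genes that passed the filter on low counts. Fresh, cryopreserved and fixed C57BL/6J libraries were paired by a suspension code in their barcode names, since aliquots of 1 suspension come from 1 mouse, and same-suspension deviations correlated at -0.0874 to 0.251 in the cryopreservation comparisons. In the methanol comparisons they correlated at 0.119 to 0.336 in the cold and 0.107 to 0.224 in the warm proximal tubule, at 0.156 to 0.359 in warm intercalated cells and at -0.00948 to 0.142 in the other classes. Female Balb/c fresh and cryopreserved libraries are also aliquots of suspensions per the study, but their codes do not tell which belong together. Warm and cold C57BL/6J libraries share the start of their codes, and a block by that start was fitted as an alternative. The p-values of the main fits measure the spread between libraries of a group and take no account of these pairings. Shares of barcodes with a UMI are given per library or with their range or SD over libraries, without a counting error.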

Additional observations from a re-analysis of the deposited data

Results flagged for a closer look

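For 2 members the change from cells to nuclei differed between female and male kidneys by the test of the difference itself. *Aqp1* in the proximal tubule had a female minus male difference of -1.88 on the log2 scale (SE 0.167, adjusted p = 3.12e-07, edgeR), and *Aqp11* in the proximal tubule one of -1.56 (SE 0.241, adjusted p = 6.28e-05). The median difference over all 12283 genes tested in this class was -0.826, and 47.9% of them were called. Genes listed at 0 in a whole library were kept among them, and their part in these 2 values is not given here. Sex, age, breeding history, batch and 10x chemistry cannot be told apart in this comparison.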

How the results depend on the processing

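Of the values for single members under the alternatives, 1014 kept their direction and their side of the threshold, 57 changed sign, 34 newly passed the threshold and 42 no longer passed it. Of the counts of called pairs and other summaries 196 stayed within the set limits, 25 were lower or lost their call, 11 were higher or gained one and 3 levels or shares moved beyond their spread. No member that changed sign was called in the fit reported. With DESeq2, *Aqp3* in principal cells (warm against cold) was at -0.0132, *Aqp2* (cryopreserved, cold C57BL/6J) at -0.00785 and *Aqp1* in the male thin limb (nuclei against cells) at -1.20, and 0 pairs (warm cryopreservation, main count 1) and 1 pair (cold methanol, main count 3) were called. At Leiden resolution 1, *Aqp2* was at 0.41 (warm against cold) and -0.49 (cold cryopreservation), *Aqp4* at -0.0268 (difference between sexes), and 2 pairs were called after warm cryopreservation. With RLE size factors *Aqp2* after methanol was at -0.0187. With doublets removed, *Aqp2* was at -0.00967 (cold cryopreservation), *Aqp1* in the male thin limb at -0.0589 and *Aqp6* in 1x2000g nuclei at -0.0314, 2 pairs were called after cold cryopreservation, and *Aqp7* in the female proximal tubule was at 13.4 CPM. Leaving out genes listed at 0 gave -0.10 for *Aqp1* in the male thin limb. With library totals alone, values were 0.071 (*Aqp1*, proximal tubule, warm against cold), -0.85 (*Aqp1*, male thin limb), 0.0566 (*Aqp11*, warm methanol), 0.14 (*Aqp11*, male nuclei), -0.0491 (*Aqp2*, cryopreservation difference), -0.0993 and -0.0678 (*Aqp2*, cryopreservation in Balb/c and cold C57BL/6J), -0.0279 (*Aqp3*, Balb/c cryopreservation) and -0.0175 (*Aqp6*, 1x2000g), and the pairs called were 0 after cold and 0 after warm cryopreservation, 1 after cold methanol and 4 for the difference between sexes. Without the filter on low counts, *Aqp1* in the male thin limb was at -1.31, *Aqp2* after cold cryopreservation at -0.10 and *Aqp3* (warm against cold) at -0.0784. A fold threshold of 1 on the log2 scale left 1 pair after Balb/c cryopreservation, 1 after cold methanol and 0 for each way of making nuclei, and a threshold of 2 left 0 in both bulk comparisons. The excess share of immune barcodes with *Aqp2* after methanol was 2.65 percentage points, 5.46 without thinning and 5.13 at 1000 UMIs. The causes of these shifts were not tested, apart from the thresholds and the fits with fewer pairs.

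With aliquots of 1 suspension as a replicate block, 0 of 3 pairs were called after cold cryopreservation, where *Aqp1* in the proximal tubule could not be tested, and 1 of 3 after warm methanol. The block newly called *Aqp7* in cold methanol (-0.59) and *Aqp1* in warm methanol (-0.31) and changed no other call of a member that it could test. With each library left out in turn, ranges that crossed 0 were -0.0681 to 0.14 (*Aqp1*, proximal tubule, sucrose), -0.12 to 0.0459 (*Aqp1*, proximal tubule, warm against cold), -0.0385 to 0.68 (*Aqp1*, thin limb, cryopreservation difference), -0.80 to 0.40 (*Aqp1*, male thin limb), -0.22 to 0.0735 (*Aqp11*, warm methanol), -0.16 to 0.26 (*Aqp2*, cryopreservation difference), -0.16 to 0.29, -0.12 to 0.14 and -0.44 to 0.14 (*Aqp2*, cryopreservation in Balb/c, cold and warm C57BL/6J), -0.0766 to 0.16 (*Aqp2*, cold methanol), -0.26 to 0.10 (*Aqp2*, warm against cold), -0.0197 to 0.32 (*Aqp3*, Balb/c cryopreservation), -0.17 to 0.26 (*Aqp3*, warm against cold), -0.28 to 0.13 (*Aqp4*, 1x2000g), -0.0321 to 0.39 (*Aqp6*, cold cryopreservation), -0.16 to 0.46 (*Aqp6*, 1x2000g) and -0.00244 to 0.16 (*Aqp7*, female nuclei). Pairs called ranged from 3 to 5 (intact kidney), 0 to 1 (cryopreservation difference, warm cryopreservation, warm against cold cells), 0 to 2 (cold cryopreservation), 1 to 2 (cold methanol), 1 to 3 (1x2000g), 2 to 4 (sucrose) and 2 to 4 (difference between sexes). *Aqp4* and *Aqp7* were listed at 0 in several C57BL/6J libraries, and *Aqp4* was listed at 0 in a warm fresh library of 14064480 UMIs but counted in a cold fresh one of 5309551.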
